A study of Arabidopsis thaliana with 12 samples.

Results

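Wild-type Col-0 seedlings of Arabidopsis thaliana were compared with scrm-D seedlings, whose epidermis consists of guard cells alone according to the sample labels. The comparison used 6 of the 12 arrays of the study, 3 per genotype, chosen by sample title, and 22746 probe sets. The study also holds 3 arrays each of spch, described in the labels as having only pavement cells in the epidermis, and of the scrm-D;mute double mutant, described as having mostly meristemoids. These 6 arrays entered the fit and are used below only to show where scrm-D differed from them. All seedlings were in the Col-0 ecotype, were stratified for 2 days at 4 °C, were grown on MS plates at 21 °C in days of 18 h light and 6 h darkness, and were harvested whole at 1 pm, 5 days after germination, with no further treatment. The double mutant carries scrm-D as well as mute. Zygosity, the kind of mute and spch lesion and the number of seedlings in a sample are not stated in the labels.

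Stomata are pores that open and close between a pair of guard cells. They arise in the young epidermis from a lineage in which SPCH starts asymmetric divisions, MUTE ends them by committing the meristemoid to become a guard mother cell, and FAMA guides the last division and guard cell identity. Each of these bHLH transcription factors works with a partner encoded by SCRM or its relative, and the scrm-D mutation makes SCRM act dominantly and drives epidermal cells into the stomatal fate. SCRM itself was not analysed here.

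The RNA came from whole seedlings, so the epidermis contributed only a part of it, and a change in a transcript can come from a different number of cells of a type or from a different amount of RNA per cell, which cannot be told apart here. Arrays of the same genotype correlated at r = 0.988 to 0.992 over all probe sets, and arrays of different genotypes among these 6 at 0.960 to 0.974. The 25S rRNA control probe set read 7.27, 7.50 and 6.56 on the log2 scale on WT replicates 2, 3 and 4, against 10.07, 9.74 and 8.98 on the scrm-D arrays, which did not overlap. It moves with the genotype, and calls that end when it is held constant are named below, while its part in the results was not tested. Root markers were not called. The 3 measured of 9 listed (the root hair expansin genes EXPA7 and EXPA18, and PYK10, a root beta-glucosidase gene) differed by −0.15 to 0.18 with no call, and their mean level was 8.55 to 8.94 on the WT arrays and 8.58 to 8.98 on the scrm-D arrays. No vascular marker of 6 listed was measured. TRY, a regulator of trichome patterning and the only measured member of the trichome and pavement list, read 5.38 ± 0.12 in WT and 5.23 ± 0.32 in scrm-D (SD, n = 3).

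Levels below are log2 values as deposited, in the order of replicates 2, 3 and 4. A change is the scrm-D mean minus the WT mean with its standard error, tested with limma and called at an adjusted p under 0.05. Over all probe sets 3220 were called, which is 14.2%, with 1538 higher (6.76%) and 1682 lower (7.39%), and the median change was −0.01. Without scrm-D replicate 4 the count was 2127. At least 2-fold changes were called for 583 probe sets that rose (2.56%) and 425 that fell (1.87%). In 30.0% of all probe sets the 3 WT values did not overlap the 3 scrm-D values.

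**Figure D1:**
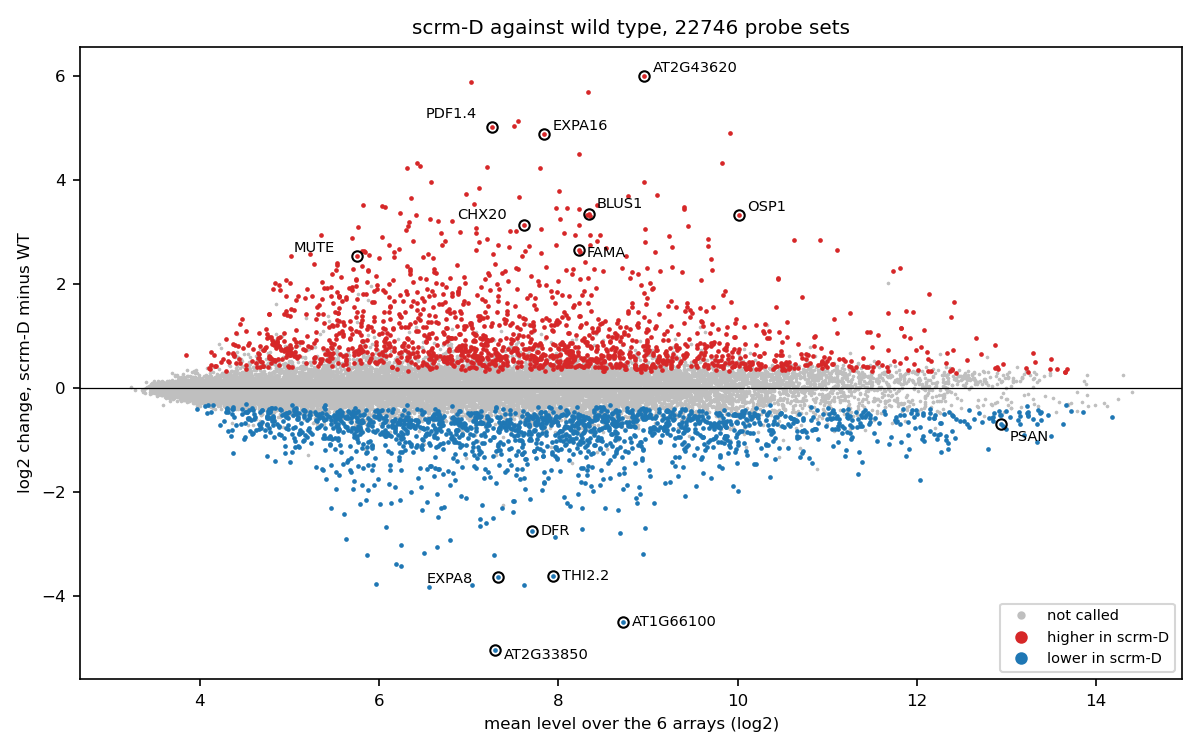
Change between scrm-D and WT (vertical axis, log2) against the mean level over the 6 arrays (horizontal axis, log2) for 22746 probe sets, with called probe sets in red where higher and blue where lower in scrm-D. The furthest points are AT2G43620 at 6.01 above and AT2G33850 at −5.04 below, the latter a fitted value with scrm-D under background.

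Of 19 genes in the stomatal lineage list 4 were measured, and 3 of them rose in scrm-D while none fell. The background share of rises was 6.76% of all probe sets. MUTE (AT3G06120), the factor that commits the meristemoid, read 4.42, 4.49 and 4.52 in WT and 6.93, 7.58 and 6.57 in scrm-D. Every scrm-D array was above every WT array, and the WT arrays lay under the background level of 4.99, which is the 95th percentile of control probe sets whose transcript was absent. MUTE was therefore at least 4.10-fold higher in scrm-D (adjusted p = 7.74e-06).

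SPCH (AT5G53210), which starts the lineage, read 6.15, 6.71 and 6.22 in WT and 7.42, 8.17 and 7.13 in scrm-D. The groups did not overlap, and replicate 3 was the highest array in each. SPCH rose by 1.21 ± 0.23 (adjusted p = 0.00411), or by 0.97 with adjusted p = 0.0540 when the 25S rRNA value was a covariate. SOL1 (AT3G22760), a regulator active in the same lineage, read 7.01, 7.32 and 6.52 in WT and 8.28, 8.48 and 7.65 in scrm-D. It rose by 1.19 ± 0.24 (adjusted p = 0.00545), with adjusted p = 0.0632 under the same covariate.

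All 3 of these genes were higher again in the double mutant than in scrm-D, a comparison that called 7.45% of all probe sets higher and 5.94% lower and that shares the scrm-D arrays with the one against WT. The means there were 10.77 for SPCH, 10.78 for MUTE and 10.70 for SOL1, and the differences from scrm-D were 3.20 ± 0.23, 3.75 ± 0.21 and 2.56 ± 0.24 (adjusted p = 1.77e-06, 1.56e-07 and 1.41e-05). In scrm-D the transcripts of these lineage regulators thus stood between their WT and their double mutant levels, with every array of a genotype separate from those of the next. The double mutant carries a mutation in MUTE itself, so its MUTE level is that of a transcript and does not give MUTE activity.

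EPFL9 (AT4G12970), a peptide secreted by inner leaf tissue that promotes stomatal formation, went the other way without a call. Its levels were 9.10, 9.20 and 8.86 in WT against 8.15, 8.26 and 7.06 in scrm-D. The groups did not overlap, and scrm-D replicate 4 was the lowest array. The difference was −1.23 ± 0.40 (adjusted p = 0.0596), and it passed with the replicate number as a block (0.000878), when spch replicate 4 was left out (0.0189) and when the double mutant lost its replicate 4 (0.0435).

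**Figure D2:**
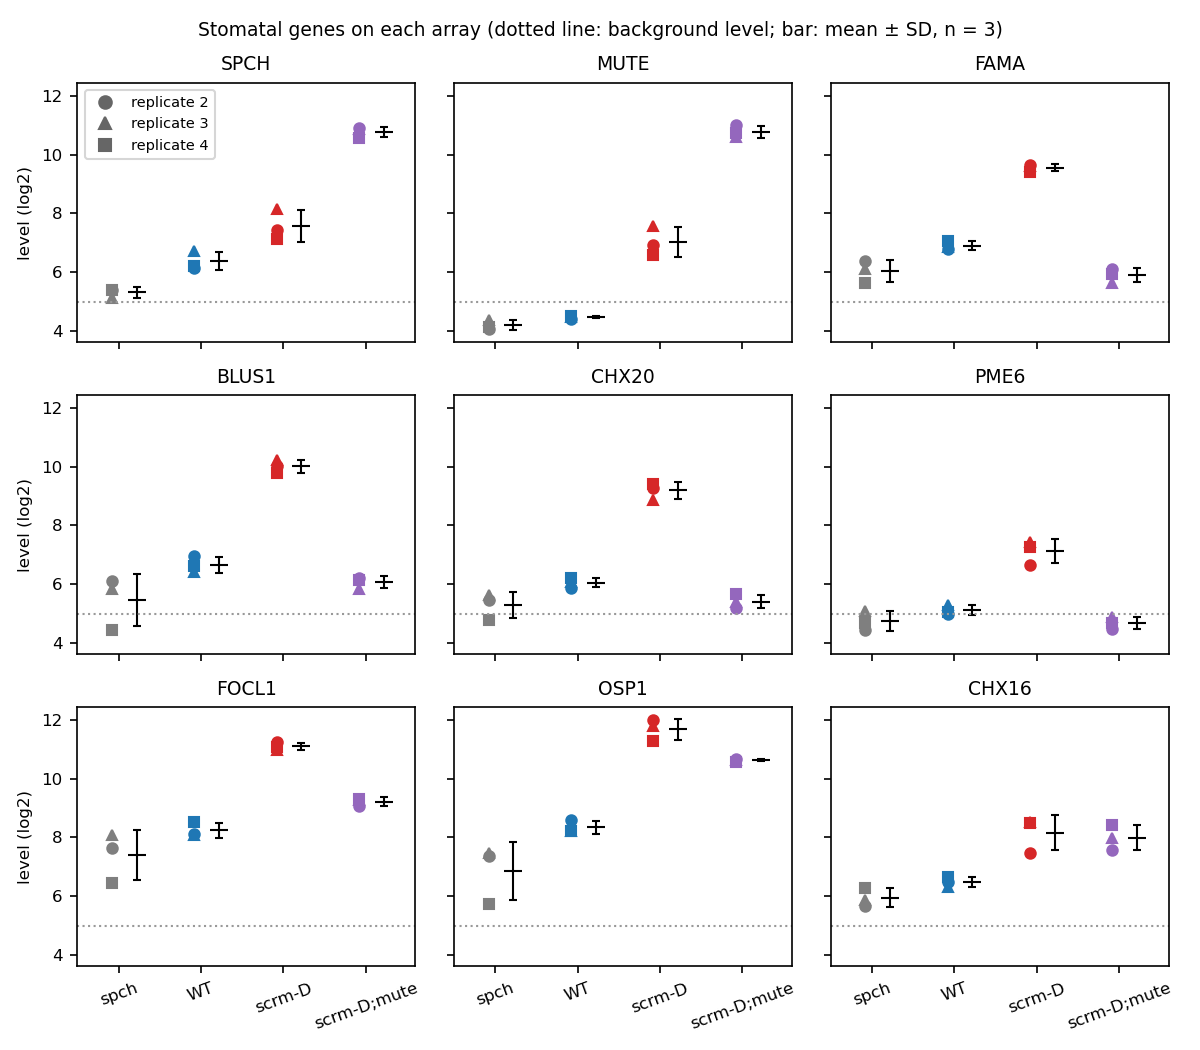
Levels of 9 stomatal genes (log2, vertical axis) on each of the 12 arrays by genotype (horizontal axis), with symbols for the replicate number, a bar for the mean ± SD (n = 3) and a dotted line at the background level of 4.99. FAMA, BLUS1, CHX20 and PME6 are highest in scrm-D, whereas SPCH and MUTE are highest in the double mutant.

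Guard cell genes rose in scrm-D. Of 33 listed, 7 were measured, 5 rose and none fell, beside 6.76% of all probe sets higher and 7.39% lower. The median change was 2.65 against −0.01 over all probe sets. The members were listed with earlier results of these data known. The annotation tables give FAMA and BLUS1 by name, whereas the names OSP1, FOCL1, PME6 and GC1 were paired with their loci by hand. Of the markers used to check the label, FAMA, BLUS1 and GC1 were the measured ones of 12 for guard cells. All 3 were higher on every scrm-D array than on any WT array, beside 30.0% of all probe sets without overlap. The measured ones of 7 for meristemoids and guard mother cells were SPCH and MUTE, which were also higher, and the part of such earlier cells in the results was not tested.

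FAMA (AT3G24140), the factor of guard cell identity, read 6.79, 6.84 and 7.07 in WT and 9.63, 9.63 and 9.41 in scrm-D. The scrm-D arrays lay close to each other and more than 2 units above WT. FAMA rose 6.30-fold (change 2.65 ± 0.18, adjusted p = 2.07e-06).

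Genes that act in the mature guard cell rose alongside. BLUS1 (AT4G14480), a kinase that relays blue light to the proton pump during stomatal opening, read 6.95, 6.42 and 6.62 in WT and 10.03, 10.22 and 9.78 in scrm-D, and it rose 10.2-fold (3.35 ± 0.33, adjusted p = 3.37e-05). CHX20 (AT3G53720), a cation/proton exchanger of guard cell osmoregulation, read 5.88, 6.06 and 6.20 in WT and 9.28, 8.87 and 9.42 in scrm-D, a rise of 8.82-fold (3.14 ± 0.21, adjusted p = 2.26e-06). For both genes the lowest scrm-D array stood more than 2 log2 units above the highest WT array.

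Genes for the wall and the cuticle of the pore also rose. OSP1 (AT2G04570), a lipase-like enzyme needed to keep the outer ledge of the pore open, read 8.61, 8.21 and 8.23 in WT and 11.98, 11.77 and 11.28 in scrm-D, a rise of 10.0-fold (3.33 ± 0.36, adjusted p = 7.29e-05). FOCL1 (AT2G16630), a proline-rich wall protein of the same ledge, read 8.11, 8.08 and 8.51 in WT and 11.23, 10.99 and 11.08 in scrm-D, a rise of 7.28-fold (2.86 ± 0.31, adjusted p = 6.95e-05). PME6 (AT1G23200), a pectin methylesterase of guard cell walls, read 4.99, 5.30 and 5.04 in WT, near background, and 6.67, 7.44 and 7.26 in scrm-D, a rise of 4.04-fold (adjusted p = 5.08e-05). None of the 3 overlapped between the genotypes, beside 30.0% of all probe sets without overlap.

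The remaining pair of guard cell genes was not called. GC1 (AT1G22690), whose promoter is widely used to drive guard cell expression, read 10.74, 10.38 and 10.86 in WT and 12.54, 12.86 and 12.66 in scrm-D, so that the groups did not overlap. Its difference of 2.03 ± 1.08 (adjusted p = 0.270) passed without spch replicate 4 (0.00393) and in a fit of these 6 arrays alone (8.81e-05). The spch arrays, whose spread enters the error, read 9.70, 9.64 and 4.31. RHC1, a transporter-like protein of carbon dioxide signalling, read 5.48 ± 0.20 in WT and 5.82 ± 0.09 in scrm-D (SD, n = 3), with a difference of 0.34.

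Most guard cell genes differed between scrm-D and the double mutant. The difference was called for 6 of the 7 members, with 5 lower and 1 (RHC1) higher in the double mutant, beside 5.94% and 7.45% of all probe sets. FAMA differed by −3.66 ± 0.18 between the double mutant and scrm-D (adjusted p = 5.88e-08), and BLUS1 by −3.94 (5.49e-06). CHX20, which is in the list of exchangers, differed by −3.78 (1.87e-07). FOCL1 differed by −1.88 (0.00132), with double mutant values of 9.05, 9.27 and 9.32 that still lay above its WT values. OSP1 was the member without a call, at 10.65, 10.64 and 10.58 in the double mutant, where it differed from scrm-D by −1.05 (adjusted p = 0.0754). Against spch, all 7 guard cell genes were higher in scrm-D, beside 15.3% of all probe sets.

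CHX16 (AT1G64170), a relative of CHX20, read 6.49, 6.30 and 6.66 in WT and 7.47, 8.53 and 8.49 in scrm-D, and it rose by 1.68 ± 0.28 (adjusted p = 0.00170). In the double mutant it read 7.56, 7.98 and 8.41, with a difference from scrm-D of −0.18 ± 0.28 that was not called (adjusted p = 0.774). The other 5 of 7 measured cation/proton exchangers were not called, and only 2 of the 7 had a genotype mean above background.

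The 15 named genes with the largest rises had fitted changes of 3.48 to 6.01, and for 5 of them, whose WT mean was under background, only a bound holds. They were taken from called genes whose groups did not overlap, so those properties were part of the choice. The tables used here give 13 of them only by locus, without a name or function. AT2G43620 read 5.37, 5.53 and 6.95 in WT and 11.77, 11.65 and 12.47 in scrm-D, which is a 64.5-fold rise (6.01 ± 0.47, adjusted p = 6.52e-06). AT1G65500 read 5.64, 5.41 and 5.41 in WT and 10.80, 10.74 and 12.02 in scrm-D, a 52.0-fold rise. Replicate 4 was the highest scrm-D array for both, and for 9 of the 15 genes.

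These 15 genes were set beside their level in the double mutant, a comparison on the same scrm-D arrays that chose them. In 7 of them the double mutant was lower than scrm-D, in 1 it was higher, and in 7 the difference was not called, beside 5.94% lower and 7.45% higher among all probe sets. AT1G75880 read 5.09, 4.73 and 5.40 in WT, 9.35, 9.27 and 9.39 in scrm-D and 4.31, 4.17 and 4.70 in the double mutant. It rose 19.2-fold over WT (adjusted p = 1.26e-07), was at least 20.3-fold lower in the double mutant, which was under background (1.68e-08), and its scrm-D arrays lay close to each other. AT5G18430 had the same order, with 6.00, 5.49 and 5.55 in WT, 9.80, 10.17 and 9.79 in scrm-D and 4.47, 4.20 and 5.65 in the double mutant. AT4G18280 was also higher on every scrm-D array, at 6.95, 6.78 and 7.05 in WT, 10.77, 10.54 and 10.54 in scrm-D and 6.59, 7.13 and 7.16 in the double mutant. AT2G32190 and AT1G10585 lay under background in both WT and the double mutant and reached 7.80 ± 0.10 and 7.58 ± 0.18 in scrm-D (SD, n = 3), at least 7.03-fold and at least 6.03-fold above WT. AT1G10585 also read 6.38, 5.94 and 7.79 in spch and was the only gene of the 15 that did not differ from spch by a call (adjusted p = 0.0850). The differences from scrm-D in AT3G62820 and AT2G39690 were smaller, at −1.78 and −0.98 (adjusted p = 0.0174 and 0.0280), and both lay above their WT arrays in the double mutant.

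The genes without a called difference between the 2 mutants included AT2G43620, at 10.68, 11.19 and 12.32 in the double mutant (adjusted p = 0.526), AT4G12490 and AT4G12500. AT4G12490 read 7.59, 7.87 and 6.92 in WT and 12.24, 12.08 and 12.82 in scrm-D, a 30.2-fold rise (adjusted p = 0.000709), and AT4G12500 rose 13.1-fold. Their locus numbers are neighbours, and whether the probe sets share signal was not tested. AT2G17740 rose at least 11.9-fold, from 4.57, 4.58 and 4.63 to 7.72, 8.82 and 9.15, and AT4G22470 rose 32.8-fold. EXPA16 (AT3G55500), an alpha-expansin gene, was the one member that was higher still in the double mutant. It read 5.18, 4.94 and 6.08 in WT, 10.21, 10.52 and 10.14 in scrm-D, and 11.70, 12.15 and 12.07 in the double mutant, so it rose 29.6-fold over WT (4.89 ± 0.24, adjusted p = 2.60e-07) and by a further 1.68 ± 0.24 (0.000498).

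**Figure D3:**
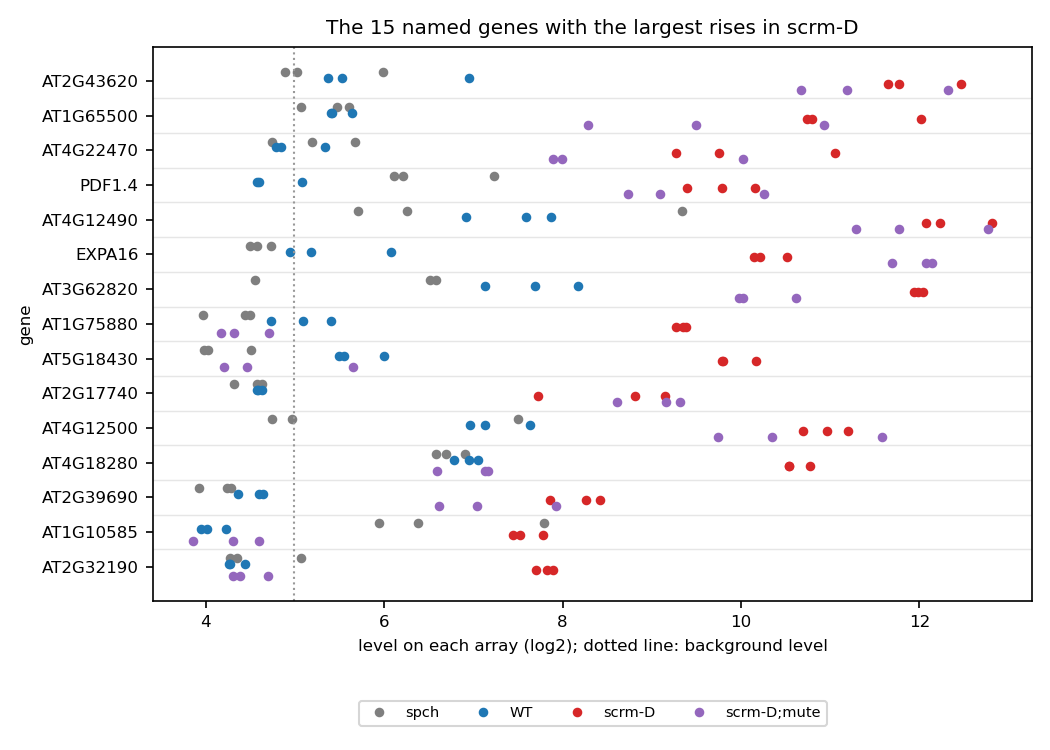
Levels (log2, horizontal axis) of the 15 named genes with the largest rises in scrm-D on each of the 12 arrays, coloured by genotype, with a dotted line at the background level of 4.99. The double mutant points lie with WT and spch for AT1G75880, AT5G18430, AT4G18280 and AT2G32190, and with scrm-D for AT2G43620, PDF1.4 and AT2G17740.

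Some of the largest changes were in probe sets that the platform annotation does not list and that have no name here. The probe set 266142_at read 4.04, 4.06 and 4.17 in WT and 10.11, 9.53 and 10.29 in scrm-D and was at least 31.7-fold higher (adjusted p = 1.02e-07). The double mutant mean was under background too, at least 28.6-fold lower than scrm-D (6.64e-08). It is an instance of a transcript at background in WT that was high in scrm-D alone of the 4 genotypes. The probe set 266385_at was at least 33.7-fold higher than in WT and had a mean of 10.46 in the double mutant. Unlisted probe sets made up 1587 of the 3220 called together with those matched to several genes.

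Of 10 measured plant defensin genes, which encode small antimicrobial peptides, 3 rose and none fell, with a median change of 0.13, beside 6.76% of all probe sets higher. PDF1.4 (AT1G19610) read 4.60, 4.58 and 5.07 in WT and 9.79, 9.39 and 10.16 in scrm-D and was at least 27.1-fold higher (adjusted p = 4.12e-06). In the double mutant it read 9.09, 8.73 and 10.26, a difference from scrm-D of −0.42 ± 0.37 that was not called (adjusted p = 0.559).

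PDF1.2 (AT5G44420), a jasmonate-responsive defensin gene, read 7.38, 6.87 and 6.61 in WT and 9.58, 8.16 and 9.94 in scrm-D, and it rose 4.85-fold (2.28 ± 0.39, adjusted p = 0.00202). PDF1.2b (AT2G26020) rose by 2.76 ± 0.51 on a probe set that also matches related sequences, so that the pair may share signal. Both were lower in the double mutant than in scrm-D, at −2.92 and −3.98 (adjusted p = 0.000299 and 0.000213), with PDF1.2 at 6.28, 6.81 and 5.83. PDF2.1 had a difference of −1.13 without a call (adjusted p = 0.182). Outside this family THI2.2, a gene of another antimicrobial peptide, fell, as given below.

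WRKY transcription factors are a family with many regulators of immunity and senescence. Of 67 listed genes 6 were measured, and 3 rose and none fell, beside 6.76% of all probe sets higher and 7.39% lower. WRKY6 (AT1G62300), a factor linked to senescence and defence, read 7.11, 6.79 and 6.99 in WT and 9.13, 8.89 and 9.08 in scrm-D, and it rose 4.20-fold (2.07 ± 0.22, adjusted p = 6.67e-05). The groups were nearly 2 log2 units apart, and the double mutant read 9.54, 9.19 and 9.38, a difference from scrm-D of 0.33 ± 0.22 that was not called (adjusted p = 0.394). WRKY47 rose by 1.48 ± 0.27 (adjusted p = 0.00265). WRKY53 rose by 1.39 ± 0.37 (0.0257), a call that ended when 1 of these 4 arrays was left out: WT replicate 3 or 4, scrm-D replicate 2 or 4 (adjusted p = 0.0530 to 0.106).

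GLR2.7 (AT2G29120), a glutamate receptor-like channel gene, read 4.79, 4.61 and 4.85 in WT and 7.18, 6.67 and 7.92 in scrm-D. It was at least 4.81-fold higher (adjusted p = 0.000253) and the only one of 8 measured that was called, beside 14.2% of all probe sets. CML23 (AT1G66400), a calmodulin-like calcium sensor gene, rose by 1.65 ± 0.26 (adjusted p = 0.00120). It was higher again in the double mutant by 0.99 (0.0253). Prx37 (AT4G08770), a class III peroxidase gene, rose by 1.56 ± 0.28 and averaged 9.60 ± 0.69 in scrm-D against 8.04 ± 0.24 in WT (SD, n = 3).

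The cytochrome P450 genes measured were largely of the CYP71B subfamily, and 4 of 21 rose while 2 fell (1 without WT replicate 2 or scrm-D replicate 2). Among all probe sets 6.76% were higher and 7.39% lower. CYP71B23 (AT3G26210) read 5.72, 5.58 and 5.48 in WT and 7.92, 8.64 and 9.17 in scrm-D, a 7.90-fold rise (2.98 ± 0.46, adjusted p = 0.000934). CYP71B24 was at least 3.17-fold higher and CYP71B36 at least 2.43-fold. Between the double mutant and scrm-D, CYP71B23 and CYP71B36 were not called (adjusted p = 0.755 and 0.934). CYP71B24 was higher in the double mutant by 0.71 (0.0372). These 3 loci are members of one subfamily with neighbouring locus numbers, and shared signal between their probe sets was not tested.

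Of 47 measured UDP-glycosyltransferase genes, enzymes that attach sugars to small molecules, 4 rose and 3 fell, with a median of −0.01, and 1 fell with the 25S covariate. These counts are close to the shares of all probe sets, 6.76% higher and 7.39% lower, and are not read as a change of the family. UGT87A2 (AT2G30140) read 7.88, 7.71 and 7.91 in WT and 10.28, 10.01 and 10.17 in scrm-D, and it rose 5.00-fold (2.32 ± 0.20, adjusted p = 1.05e-05). The scrm-D mean was 0.05 ± 0.20 above the spch mean, and the double mutant was 0.03 ± 0.20 above scrm-D, neither of which was called (adjusted p = 0.890 and 0.949). UGT84A3 rose by 1.47 and UGT73B1 by 1.12, and the latter was lower in scrm-D than in spch (−1.02) (adjusted p = 0.00120). GSTU26 (AT1G17190), 1 of 13 measured glutathione transferase genes, rose by 1.28 and by a further 1.58 in the double mutant. In the same family GSTU18 fell by 0.88 ± 0.19 (adjusted p = 0.00812, and 0.0803 with the 25S covariate) and GSTF4 by 0.57 ± 0.14 (0.0197, and 0.0740 or 0.0750 without WT replicate 2 or scrm-D replicate 2). ATG8H and ATG8B, which encode the protein that coats autophagosome membranes, rose by 0.84 ± 0.15 and 0.85 ± 0.18 (adjusted p = 0.00297 and 0.00624) as 2 of 10 measured autophagy genes, and ATG8B did not pass with the 25S covariate (0.0577).

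Some families of genes that remodel the cell wall had called members in both directions, and others in 1. Counts near the shares of all probe sets are not read as a change of a family. Alpha-expansins loosen walls during growth, and 2 of the 10 measured genes rose while 2 fell, beside 6.76% of all probe sets higher and 7.39% lower. Beside EXPA16, EXPA9 (AT5G02260) rose from 7.97, 7.56 and 7.53 to 8.60, 9.29 and 8.93 (1.25 ± 0.23, adjusted p = 0.00280) and by 2.93 more in the double mutant (2.90e-06). EXPA8 (AT2G40610) read 9.53, 9.44 and 8.45 in WT and 5.77, 5.80 and 4.95 in scrm-D, a 12.4-fold fall (−3.63 ± 0.34, adjusted p = 2.42e-05). EXPA15 (AT2G03090) fell by 1.16, from 9.75, 10.23 and 9.96 to 8.85, 9.04 and 8.57. The groups did not overlap in 5 of the 10 measured genes, the 4 called ones among them, beside 30.0% of all probe sets. The called genes were picked on these same arrays, so their separation adds no support. EXPA8 and EXPA15 were also lower in spch than in WT (−1.32 and −1.79, adjusted p = 0.0175 and 9.08e-05).

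Xyloglucan endotransglucosylases cut and rejoin the hemicellulose that ties cellulose fibres. Of 9 measured genes 2 rose and 1 fell, beside 6.76% of all probe sets higher and 7.39% lower. XTH16 (AT3G23730) read 8.40, 8.78 and 8.49 in WT and 10.74, 10.95 and 10.21 in scrm-D, a 4.21-fold rise (2.07 ± 0.26, adjusted p = 0.000223). The double mutant was higher than scrm-D by a further 0.95 (0.0304). XTH19 rose by 1.08 ± 0.23 (adjusted p = 0.00831, and 0.0886 with the 25S covariate), and XTH20 fell by 1.24 ± 0.24 (0.00400). In spch XTH16, XTH19 and XTH20 were each lower than in WT (−1.06, −1.71 and −1.59, adjusted p = 0.0128, 0.000405 and 0.000709).

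In the GH9 family of endoglucanases, which cut cellulose, 2 of 15 measured genes rose and 4 fell, beside 6.76% of all probe sets higher and 7.39% lower. GH9B12 (AT2G44570) read 4.59, 4.73 and 4.86 in WT, under background, and 6.57, 6.53 and 6.90 in scrm-D. It was at least 3.20-fold higher (adjusted p = 7.64e-06), and the double mutant was under background as well, at 4.74, 4.45 and 4.92 (at least 3.20-fold lower than scrm-D, 3.80e-06). GH9B18 rose by 1.09 ± 0.15 and dropped by 1.60 in the double mutant. GH9B8 fell by 1.22 ± 0.24 (adjusted p = 0.00498) and GH9B7 by 0.74 ± 0.15 (0.00538, and 0.0592 with the 25S covariate). Both were lower in spch than in WT as well (−2.52 and −0.61, adjusted p = 3.53e-05 and 0.0126). Leaving out 1 of WT replicates 3 and 4, or 1 of scrm-D replicates 2 and 4, brought the falling members from 4 to 2.

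Trichome birefringence-like proteins add acetyl groups to wall polysaccharides. Of 22 measured genes 2 rose and 4 fell, beside 6.76% of all probe sets higher and 7.39% lower. TBL45 (AT2G30010) read 9.16, 9.04 and 9.41 in WT and 7.34, 6.97 and 6.69 in scrm-D, a 4.60-fold fall (−2.20 ± 0.19, adjusted p = 1.05e-05). TBL36 fell 2.47-fold and TBL25 1.72-fold, while TBL37 rose by 1.03. In spch TBL36 was also lower than in WT (−1.98, adjusted p = 3.64e-05) and TBL37 also higher (1.71, 2.61e-05). TBL45 and TBL25 were not called between spch and WT (0.198 and 0.0512). Leaving out WT replicate 2 or 3, or scrm-D replicate 2 or 4, left TBL37 as the only member that rose.

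Among 8 measured beta-expansin and expansin-like genes 3 fell and none rose, beside 7.39% of all probe sets lower. EXLB1 (AT4G17030) fell from 7.74, 7.79 and 7.89 to 5.97, 6.63 and 6.33 (−1.50 ± 0.17, adjusted p = 0.000107) and kept its call without any 1 array. The falls of EXPB1 (−1.18) and EXPB3 (−1.53) did not: they gave adjusted p = 0.0788 and 0.128 without scrm-D replicate 4, 0.0713 and 0.0825 without WT replicate 2, and 0.0552 and 0.0953 without WT replicate 3. EXPB3 also lost its call without WT replicate 4 (0.0811), scrm-D replicate 2 (0.0643), scrm-D replicate 3 (0.0572) or replicate 3 of the double mutant (0.0505). The EXPB3 call ended with the 25S covariate (0.192) and with trend and robust moderation (0.0805) as well. Compared with WT, spch was lower too for EXLB1 (−1.91, adjusted p = 2.38e-05), EXPB1 (−1.66, 0.00202) and EXPB3 (−2.76, 0.00103). PME61, another pectin methylesterase gene, went from 5.63, 5.49 and 6.03 to 4.36, 4.31 and 4.23 and was at least 1.65-fold lower, the reverse of PME6. PME61 was also called lower in spch than in WT (adjusted p = 9.67e-05). BGLU44 rose by 1.06, whereas BGLU47 fell by 0.97 and BGLU33 was at least 2.58-fold lower. Of 20 measured beta-glucosidase genes 3 rose (1 without WT replicate 4) and 2 fell, beside 6.76% of all probe sets higher and 7.39% lower. SBT1.3, a subtilase gene, rose by 1.00 and by 1.06 more in the double mutant. CSLA03, a mannan synthase-like gene, fell by 1.12 ± 0.24 (adjusted p = 0.00859, and 0.109 with the 25S covariate).

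The 15 named genes with the largest falls had fitted changes of −5.04 to −2.47, and for 6 of them, whose scrm-D mean was under background, only a bound holds. AT2G33850 read 10.00, 9.78 and 9.67 in WT and 4.88, 5.09 and 4.37 in scrm-D, so it was at least 27.7-fold lower (adjusted p = 2.60e-07). It went from a bright signal to background, whereas spch read 8.94, 9.10 and 8.27, a smaller called fall from WT (−1.04, adjusted p = 0.0109). AT1G66100 read 11.07, 10.99 and 10.84 in WT and 7.34, 6.21 and 5.88 in scrm-D, a 22.5-fold fall (adjusted p = 0.000172), and spch read 7.72, 7.39 and 5.41, from which scrm-D differed by −0.36 ± 0.54 (adjusted p = 0.693).

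THI2.2 (AT5G36910), which encodes a thionin, an antimicrobial peptide, read 9.58, 9.59 and 10.07 in WT and 6.52, 6.42 and 5.49 in scrm-D, a 12.2-fold fall (−3.60 ± 0.27, adjusted p = 4.25e-06). In spch it was higher than in WT, at 11.27, 11.40 and 10.64, so that scrm-D and spch differed by −4.96 ± 0.27 (2.02e-07). MSRB6 (AT4G04840), a methionine sulfoxide reductase gene, was also lower in scrm-D than in WT and spch. It read 9.48, 9.27 and 9.42 in WT, 6.32, 6.59 and 6.68 in scrm-D and 10.08, 10.20 and 8.80 in spch, a 7.26-fold fall from WT. Its spch mean differed from WT by 0.30 without a call (adjusted p = 0.561), and spch replicate 4 lay below every WT array.

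None of these 15 genes, which were chosen for low values on the scrm-D arrays, was called between the double mutant and scrm-D, beside 13.4% of all probe sets. For 6 of them both mutants had means under background, where a further fall in the double mutant could not be seen. In 10 of the 15 scrm-D was lower than spch, beside 14.7%, and in 5 the difference was not called: AT1G66100, AT1G13650, AT2G28780, DFR and AT4G01390. AT2G28780, for instance, read 8.04, 8.07 and 7.15 in WT, and its other 9 arrays lay between 4.35 and 4.98. AT5G33370 fell from 7.75, 8.03 and 7.86 to 4.59, 4.49 and 4.45 and was at least 7.41-fold lower, and AT1G31690 was at least 7.84-fold lower. Replicate 4 was the lowest of the scrm-D arrays for 12 of the 15 genes. The unlisted probe set 259790_s_at went from a mean of 8.46 to 4.65 and was at least 11.1-fold lower, and 259813_at fell 13.8-fold, from 8.93 to 5.14.

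**Figure D4:**
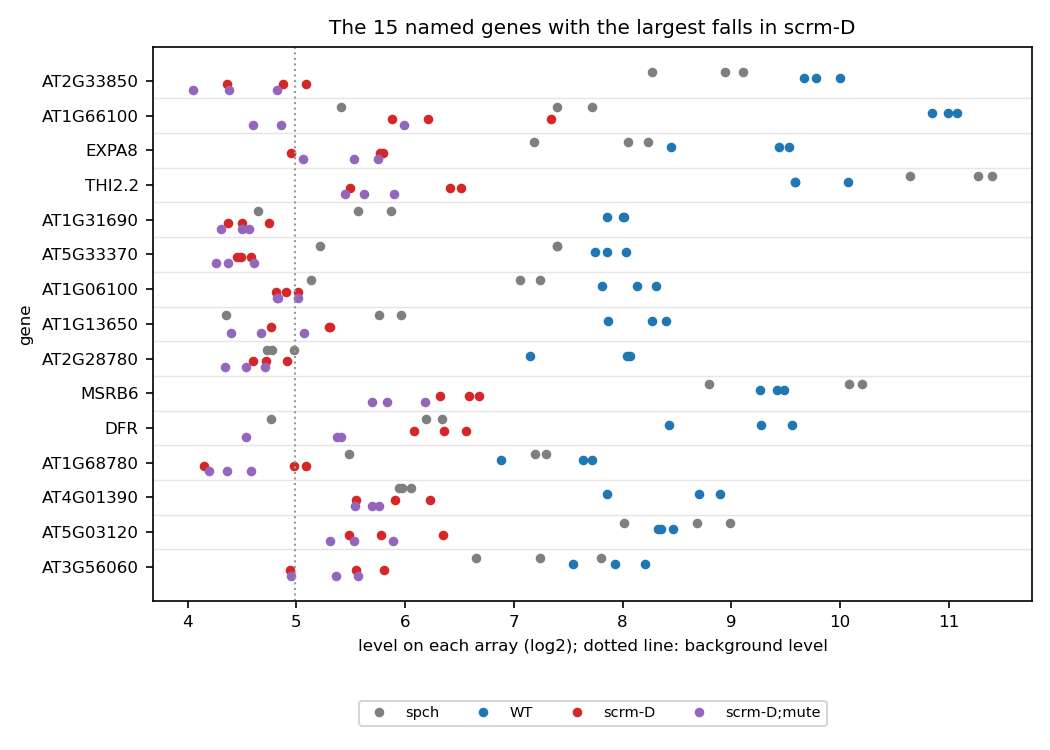
Levels (log2, horizontal axis) of the 15 named genes with the largest falls in scrm-D on each of the 12 arrays, coloured by genotype, with a dotted line at the background level of 4.99. The double mutant points overlap the scrm-D points for most genes but lie below them all for DFR and MSRB6. The spch points lie closer to WT than to scrm-D for AT2G33850 and MSRB6, above WT for THI2.2, and near scrm-D for AT2G28780 and AT4G01390.

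The measured members of the list for anthocyanin and flavonoid synthesis, which makes pigments of the epidermis, fell in scrm-D. All 3 measured of 12 listed were called, beside a background of 7.39% falls. DFR (AT5G42800), the reductase that commits flavonoids to anthocyanin, read 9.55, 9.27 and 8.43 in WT and 6.56, 6.36 and 6.08 in scrm-D, a 6.72-fold fall (−2.75 ± 0.40, adjusted p = 0.000623). UF3GT (AT5G54060), which adds xylose to anthocyanin, read 9.66, 9.83 and 8.29 in WT and 7.03, 7.37 and 6.60 in scrm-D, and it fell 4.79-fold (adjusted p = 0.00374). The malonyltransferase gene 5MAT (AT3G29590) read 7.07, 7.02 and 6.14 in WT and 5.15, 4.93 and 4.57 in scrm-D, at least 3.26-fold lower (0.000976). In all 3 genes WT replicate 4 was the lowest WT array and scrm-D replicate 4 the lowest scrm-D array, without overlap.

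None of the 3 differed by a call between scrm-D and spch (adjusted p = 0.334, 0.792 and 0.828) or between scrm-D and the double mutant (0.0610, 0.271 and 0.990), and 5MAT was under background in both scrm-D and the double mutant. UGT78D1 (AT1G30530) adds rhamnose to flavonols. It read 9.85, 9.67 and 9.57 in WT and 9.93, 9.82 and 9.34 in the double mutant, and averaged 7.84 ± 0.46 in scrm-D (SD, n = 3), where it reached at most 8.20. It fell by 1.86 ± 0.36 in scrm-D (adjusted p = 0.00397), and the double mutant was 1.86 higher than scrm-D (0.00405). Its relatives UGT78D2 and UGT78D3 differed between scrm-D and WT by −0.61 and −0.32 without a call (adjusted p = 0.0800 and 0.101). UGT78D3 had a mean under background in both genotypes.

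Of 15 listed Calvin cycle genes 3 were measured, and 2 fell and none rose, beside 7.39% of all probe sets lower. The genes that fell were PRK (AT1G32060) and SBPASE (AT3G55800), whose enzymes take part in regenerating the carbon dioxide acceptor. PRK read 12.58, 12.90 and 12.88 in WT and 11.91, 12.12 and 11.55 in scrm-D (−0.93 ± 0.14, adjusted p = 0.00102), and SBPASE read 12.42, 12.42 and 12.75, then 11.53, 11.78 and 11.54 (−0.91 ± 0.15, 0.00172). The third, RCA, which activates Rubisco and marks mesophyll, read 14.00, 13.96 and 13.97, then 13.68, 13.73 and 13.72, a difference of −0.27 ± 0.08 whose groups did not overlap but which was not called (0.0544).

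Of 7 measured nuclear genes of the photosystems and antenna 4 fell and none rose, with a median change of −0.45, beside 7.39% of all probe sets lower. The other 3 differed by −0.34 to 0.21 without a call. LHCB4.2 (AT3G08940), an antenna protein of photosystem II, read 12.98, 12.88 and 12.86 in WT and 12.14, 12.12 and 11.58 in scrm-D (−0.96 ± 0.19, adjusted p = 0.00481). PSAN (AT5G64040), a photosystem I subunit, read 13.29, 13.27 and 13.31 in WT and 12.79, 12.63 and 12.37 in scrm-D, and it fell 1.62-fold (−0.69 ± 0.11, 0.00125). PSBY fell by 0.52 and PSAE-1 by 0.45, with values of each that did not overlap between the groups. The PSBY call ended without WT replicate 4 (0.0602) or scrm-D replicate 3 (0.0538) and with the 25S covariate (0.0580) or these 6 arrays alone (0.0524), and the PSAE-1 call without WT replicate 3 (0.0544) or scrm-D replicate 4 (0.0771). These transcripts were not called between scrm-D and the double mutant, where PSAN read 12.64, 12.68 and 12.55.

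Genes encoded in the chloroplast itself were read in 4 lists, in which 6 of 20, 4 of 10, 1 of 12 and 0 of 19 measured members fell and none rose, beside 7.39% of all probe sets lower. The labelling used an oligo-dT primer, and chloroplast transcripts mostly lack long poly(A) tails, and how far that bears on these levels was not tested. All 20 measured photosystem genes of the chloroplast had a change below 0, with a median of −0.59, and 6 fell by the test. The count was 11 with the replicate block, 2 with the 25S covariate, 3 without WT replicate 2, 1 once WT replicate 4 was dropped and 2 once scrm-D replicate 4 was. The 6 were all of photosystem II, and psbE, psbF and psbL among them lie in one transcription unit and so are not independent. The gene psbK, which encodes a small photosystem II subunit, read 12.37, 12.41 and 12.31 in WT and 11.60, 11.67 and 11.50 in scrm-D (−0.77 ± 0.10, adjusted p = 0.000326), and the double mutant lay between, at 11.99, 12.26 and 12.26 (0.58 above scrm-D, 0.00218).

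In the NADH dehydrogenase-like complex, which cycles electrons around photosystem I, 4 of 10 measured genes fell, 2 without WT replicate 3 or scrm-D replicate 4, with a median of −0.54. ndhJ read 10.12, 9.74 and 9.65 in WT and 9.14, 8.87 and 8.23 in scrm-D (−1.09 ± 0.21, adjusted p = 0.00472), and ndhI fell by 0.82 ± 0.18 (0.00833). Of 12 genes for the ATP synthase and the cytochrome b6f complex, petD alone fell (−1.25 ± 0.28, 0.00974), and 4 fell with the replicate block or without scrm-D replicate 3. Of 19 measured genes for the chloroplast ribosome and RNA polymerase none was called, with 1 at an unadjusted p under 0.05 and a median of −0.17.

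**Figure D5:**
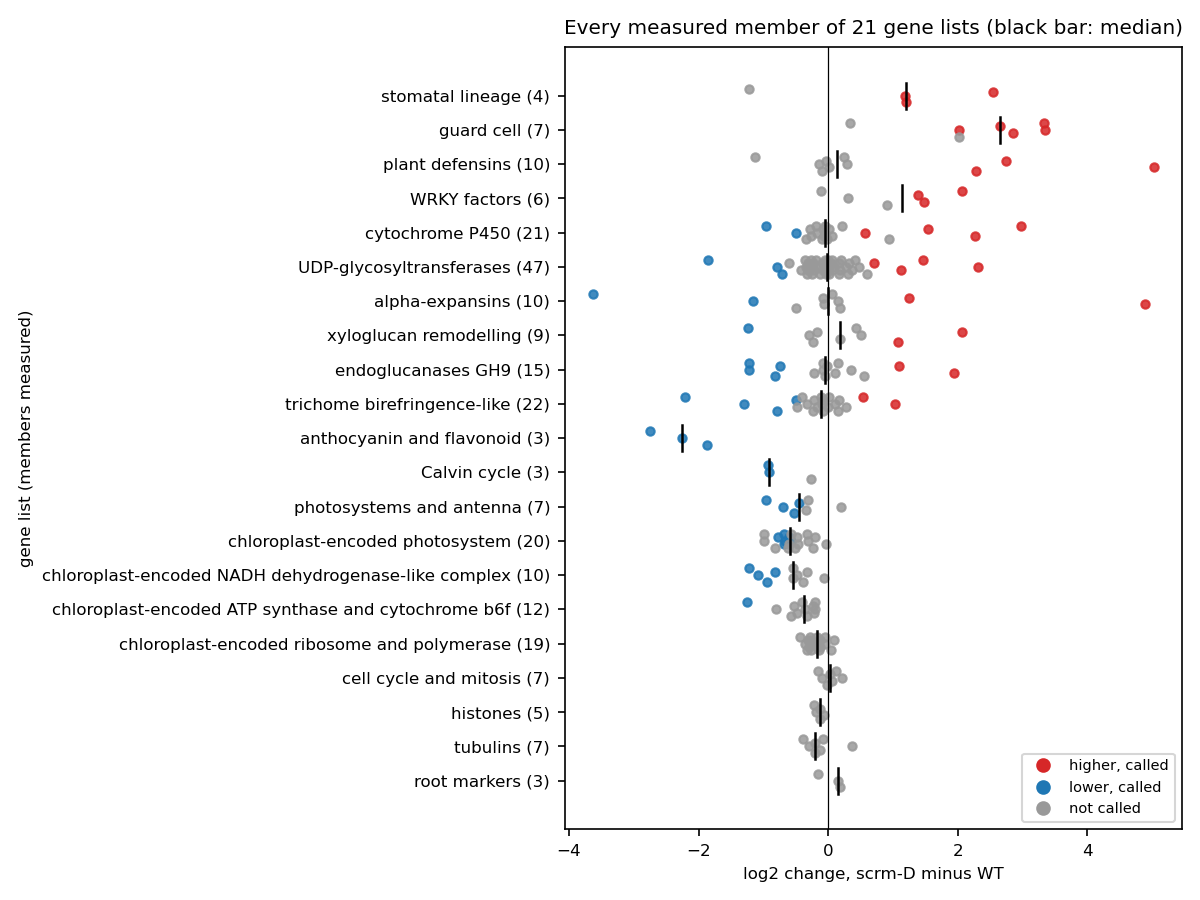
Change between scrm-D and WT (log2, horizontal axis) for every measured member of 21 gene lists (vertical axis, number of members in brackets), with called genes in red or blue, other genes in grey and a black bar at each median. The guard cell median is at 2.65, the anthocyanin and flavonoid median at −2.26, and the 4 chloroplast-encoded lists lie between −0.59 and −0.17.

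Several groups had no call in limma's fit between scrm-D and WT. The 7 measured genes of the cell cycle and mitosis, among them BUB3.1, BUB3.2 and BUBR1 of the spindle checkpoint, differed by −0.15 to 0.21 with a median of 0.02, and none had an unadjusted p under 0.05. Against the other mutants, 6 of the 7 were lower in scrm-D than in the double mutant, beside 7.45% of all probe sets, and 6 were higher than in spch, beside 15.3%. Neither 5 histone genes (−0.21 to −0.07, none at an unadjusted p under 0.05) nor 7 tubulin genes (−0.39 to 0.37, 2 at an unadjusted p under 0.05) were called. Of 40 AGAMOUS-like factor genes, 8 had a genotype mean above background, 2 had an unadjusted p under 0.05 and none was called.

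Scattered members of other families fell, beside 7.39% of all probe sets called lower. BZIP61 (AT3G58120), a bZIP transcription factor gene, fell from 8.38, 8.36 and 8.20 to 6.93, 7.20 and 6.75 (−1.36 ± 0.16, adjusted p = 0.000147), dropped by 1.01 more in the double mutant (0.00113), and was 1 of 2 called among 14 measured. The other, BZIP34, was at least 1.24-fold lower. IAA29 (AT4G32280), an auxin response repressor gene and the only one of 4 measured auxin genes that was called, read 6.11, 5.54 and 5.66 in WT and 4.76, 4.80 and 4.61 in scrm-D and was at least 1.72-fold lower (0.000337).

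Of 29 measured serine carboxypeptidase-like genes 5 fell and none rose, beside 7.39% of all probe sets lower and 6.76% higher. A change below 0 was seen in 26, while the median over all probe sets was −0.01. Only 18 of the 29 had a genotype mean above background, and the 24 without a call differed by −0.42 to 0.08. The count of called falls was 3 without any 1 of WT replicate 4, scrm-D replicate 2 and scrm-D replicate 4. SCPL45 fell by 0.89 ± 0.14 (adjusted p = 0.00101), scpl20 by 1.25 ± 0.22 (0.00249) and scpl31 by 1.33 ± 0.30 (0.00989). The U-box ubiquitin ligase gene PUB26 fell by 1.01 ± 0.20, and RALFL27, which encodes a RALF-like signalling peptide, read 6.42, 5.97 and 5.96 in WT and 5.32, 4.80 and 4.94 in scrm-D, a 2.14-fold fall (0.000735).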

How the data were processed

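Total RNA was reverse transcribed from an oligo-dT primer, amplified, labelled with biotin and hybridised to Affymetrix arrays, per the labels' protocols. The authors deposited log2 values, which run from 3.13 to 14.63, made with RMA and limma, whose versions are not given, per the submitters' processing notes. The array medians of the 6 arrays lay between 6.43 and 6.51. Groups were taken from titles, because on the scrm-D arrays the free-text description speaks of the double mutant while title and genotype do not. Bacterial spike controls separated the 4 genotypes.

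The 64 control probe sets were left out, and log2 values were fitted as deposited with limma 3.58.1 under R 4.3.3. Each genotype had its own mean, all 12 arrays shared the error, and moderation was the empirical Bayes one with two-sided tests. p-values were adjusted by the Benjamini-Hochberg method over all 22746 probe sets, and measure the spread between these samples only. The number of arrays limits the precision.

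The background level, 4.99, is the 95th percentile of 261 control values without their transcript. A fold against a group mean under it, each array set to at least that level, is written as at least. The platform annotation pairs 13513 probe sets with 1 gene, 503 with several and lists none for 8794, and 13436 of the first matched a TAIR10.1 locus, used for names alone. The build behind the probe sets is not known here, and coordinates are left out.

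Named genes are the 15 largest rises and falls among called single-gene probe sets whose groups do not overlap and whose higher mean is above background, up to 5 measured members of a list by adjusted p, SPCH, MUTE, FAMA and markers. A gene with several probe sets is represented by the brightest. The members and the 67 lists (16 hand-written, 51 by symbol pattern, 517 of 2172 members measured) were chosen with earlier results of these data known. Same-numbered scrm-D and WT arrays deviated together (r = 0.103, 0.299 and 0.214), which counts as pairing, with the pairing taken from the values, as the labels leave the meaning of the number unsaid. The main fit, planned without it, took no account of the number. Its calls and missing calls are therefore those of an unpaired fit, with 3220 probe sets called against 4073 with the replicate block. Alternatives were a replicate block, other normalizations, filters and moderation, a covariate and leaving arrays out.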

Additional observations from a re-analysis of the deposited data

Results flagged for a closer look

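Control probe sets outside the comparison carried signal on 2 counts. The 25S rRNA control averaged 9.60 ± 0.56 (SD, n = 3) in scrm-D against 7.11 ± 0.49 in WT, and was 9.63 ± 1.25 in spch and 9.62 ± 2.31 in the double mutant. The phe control transcript, spiked at 13.07 to 13.09 on the scrm-D arrays, read 5.15 on replicate 4 of the double mutant, against 4.15 to 4.34 on the other 8 arrays that lack it. Neither was tested further.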

How the results depend on the processing

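The count of probe sets called between scrm-D and WT was 3220, and 4073 with the replicate block, 2881 in a fit of the 6 arrays, 2267 with the 25S rRNA covariate and 2489 when replicate 4 was dropped from all 4 genotypes, which was added after seeing the data. Leaving out 1 array gave 2127 (without scrm-D replicate 4) to 3496. Between scrm-D and spch 6814 were called, with 5668 to 6886 when 1 array was left out. Between the double mutant and scrm-D 3046 were called, with 1962 to 3333, the lowest without replicates 3 and 2 of the double mutant (1962 and 1968). Median centring left 42.2% of the calls between scrm-D and WT in the higher direction against 47.8%. Of 102 called genes named in the text, 89 kept their call and direction under all 20 other settings, and 13 lost it under at least 1, among them 9 under the 25S covariate; the cause was not tested. The uncalled genes EPFL9, GC1, LHCB4.1 and RCA gained a call under at least 1, LHCB4.1 and RCA with trend and robust moderation (0.0429 and 0.0426). The sign reversed for uncalled genes near 0 alone: TRY lay between −0.309 and 0.0106 when 1 array was left out, and at 0.0174 when all 4 replicate 4 arrays were, EXPA7 between −0.0641 and 0.535, and EXPA18 between −0.0471 and 0.323. The replicate block ended no call of a named gene. Genes at or under background, such as MUTE in WT, have only a bound there.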
